A study of Homo sapiens with 9 samples.

Results

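The genes described here encode the subunits of the mitochondrial respiratory chain and of ATP synthase, in LAN5 cells, an established human neuroblastoma line. Members were taken by gene symbol: nuclear symbols of the NDUFA, NDUFB, NDUFC, NDUFS and NDUFV series, SDHA to SDHD, UQCR symbols, CYC1, COX4 to COX8 symbols and ATP5 symbols, together with the protein genes of the mitochondrial chromosome (MT-ND, MT-CO, MT-ATP and MT-CYB symbols). The rule found 103 of the 25084 listed genes, of which 90 were nuclear and 13 mitochondrial. The nuclear members comprised 78 subunit genes, 8 pseudogenes, 2 retrocopies (UQCRHL and ATP5MGL), the ATP synthase inhibitor ATP5IF1 and the supercomplex factor COX7A2L. Of the 103 members, 93 reached 1 CPM (reads of a gene relative to the library's assigned total) in at least 3 libraries and were tested, among 14495 genes tested in all. These were 80 nuclear members and all 13 mitochondrial ones. The 10 untested members were the 8 pseudogenes, ATP5MGL and COX6B2.

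The respiratory chain passes electrons from NADH (complex I) and succinate (complex II) through ubiquinone, complex III and cytochrome c to oxygen (complex IV), and pumps protons across the inner mitochondrial membrane. ATP synthase (complex V) uses the returning protons to make ATP. Complexes I, III, IV and V each combine subunits imported from the cytosol with subunits translated inside the mitochondrion from its own chromosome, whereas complex II is encoded wholly in the nucleus. MYC-family transcription factors are known for binding the E-box CACGTG and for acting on many genes of metabolism, and HAND2 is a basic helix-loop-helix factor of the sympathetic lineage.

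LAN5 cells, kept in RPMI-1640 growth medium with fetal calf serum, received small interfering RNAs by Nucleofector electroporation, and total RNA was taken 72 h later. The 3 groups held 3 libraries each: siCTR (control siRNA), siMYCN (siRNA named siMYCN_2) and siHAND2 (siRNA named siHAND2_3). The cells had no other labelled treatment. The knockdown was transient, each target had 1 siRNA name, and all data came from 1 line. The labels do not say that the replicates were separate cultures, so p-values measure the spread between these libraries, which may be technical.

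The steps between low values corresponded to 21.1 M to 32.7 M assigned reads per library, at which counting error alone was 17.5% to 21.8% at 1 CPM. MYCN lay at 1786 to 1894 CPM after siCTR, 1245 to 1338 CPM after siMYCN and 877 to 969 CPM after siHAND2, and HAND2 at 489 to 516, 557 to 588 and 267 to 280.4 CPM. MYCN was therefore lower in the siHAND2 libraries than in the siMYCN libraries. Of 10 sympathetic neuroblast markers, all 10 were tested and summed to 2734 to 2884 CPM after siCTR, 3380 to 3491 CPM after siMYCN and 2890 to 3019 CPM after siHAND2. Of 10 fibroblast or stroma markers, 9 were in the table and 7 were tested, with sums of 287.8 to 292 CPM, 347 to 349.5 CPM and 620.9 to 703.4 CPM in the same order, while COL1A1 and POSTN were under 1 CPM in every library. Schwann cell markers summed to at most 3.34 CPM and blood and endothelial markers to at most 0.690 CPM. These marker sums moved with the siRNA groups, and their part in the results was not tested. In bulk RNA, fewer cells of a type and less RNA per cell cannot be told apart.

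Summed over all members of a class, nuclear subunit RNA was lower in both knockdowns, whereas mitochondrially encoded RNA varied more within the siHAND2 group than between groups. The nuclear sum was 7427, 7664 and 7590 CPM in the siCTR libraries, 7158, 7233 and 7089 CPM after siMYCN, and 7283, 7213 and 7343 CPM after siHAND2. All 6 knockdown libraries lay below the 3 siCTR libraries. The group means were 7560 ± 122 CPM for siCTR, 7160 ± 72.0 CPM for siMYCN and 7280 ± 64.9 CPM for siHAND2 (SD, n = 3 each). The mitochondrial sum was 7138, 6899 and 7026 CPM after siCTR, 7426, 6592 and 7287 CPM after siMYCN, and 5942, 6097 and 7382 CPM after siHAND2. Replicates 1 and 2 of siHAND2 had the lowest sums of the 9 libraries, and replicate 3 of the same group lay above every siCTR library.

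**Figure D1:**
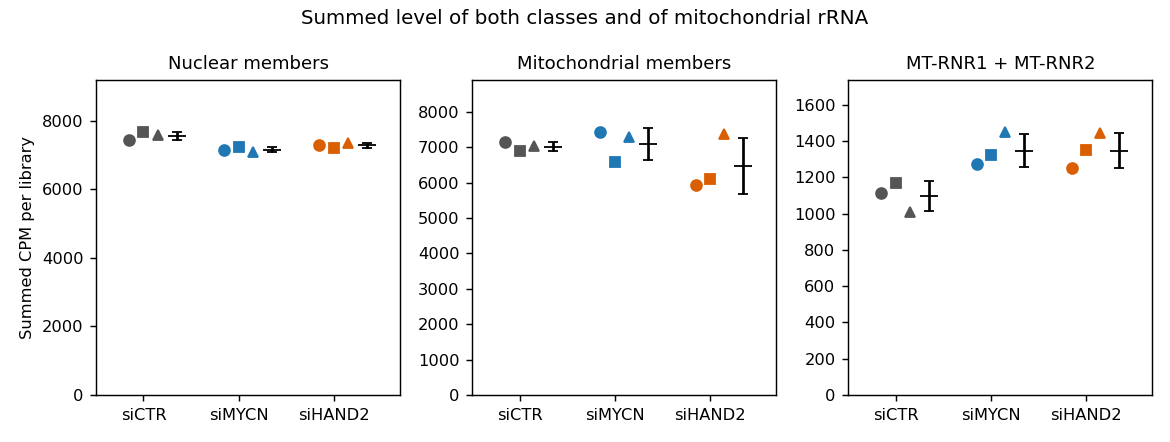
Summed CPM per library (y axes, starting at 0) of the nuclear members, the mitochondrial members and the mitochondrial ribosomal RNAs MT-RNR1 and MT-RNR2, by siRNA group. Circles, squares and triangles are replicates 1, 2 and 3, and the horizontal bar with its whisker is the mean ± SD of 3 libraries. The 6 knockdown libraries lie below the siCTR libraries in the nuclear panel and above them in the ribosomal RNA panel, and the siHAND2 libraries spread from 5942 to 7382 CPM in the mitochondrial panel.

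By complex, the siMYCN libraries did not overlap the siCTR libraries for the nuclear sums of complexes II to V. Complex V subunits summed to 2847 ± 46.1 CPM after siCTR, 2624 ± 19.1 CPM after siMYCN and 2704 ± 46.5 CPM after siHAND2 (SD, n = 3 each). Complex III subunits summed to 848 ± 12.1, 794 ± 9.60 and 819 ± 10.5 CPM. Complex IV subunits summed to 1431 ± 39.4, 1355 ± 25.8 and 1377 ± 23.8 CPM, and here the siHAND2 libraries overlapped the siCTR libraries. Complex II subunits summed to 184 ± 2.83, 172 ± 2.18 and 172 ± 5.37 CPM, with both knockdowns below siCTR in every library. The nuclear complex I sums, 2251 ± 26.6, 2215 ± 16.9 and 2208 ± 22.3 CPM, overlapped between siCTR and each knockdown.

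After siMYCN the largest falls among the nuclear members were those of ATP5MC1, UQCRH and ATP5MC2. ATP5MC1 and ATP5MC2 encode the same mature protein, the c subunit of the rotating ring of ATP synthase, and UQCRH encodes the hinge protein of complex III, which contacts cytochrome c1. All 3 were also lower after siHAND2. The 150 bases before the annotated start of these genes and of COX5B, a complex IV subunit lower in both knockdowns, are shown because these are the promoters of the members with the largest or shared changes (RefSeq, GRCh38.p14, 5′ to 3′ on the strand of the gene). Capitals mark GCATGCG (the core of the motif of the nuclear respiratory factor NRF1), CCGGAAG (bound by ETS factors such as GABP) or CACGTG on either strand. The windows are chr17:48892637-48892786 on the plus strand for ATP5MC1, chr1:46303548-46303697 on the plus strand for UQCRH, chr12:53676084-53676233 on the minus strand for ATP5MC2 and chr2:97645912-97646061 on the plus strand for COX5B.
ATP5MC1: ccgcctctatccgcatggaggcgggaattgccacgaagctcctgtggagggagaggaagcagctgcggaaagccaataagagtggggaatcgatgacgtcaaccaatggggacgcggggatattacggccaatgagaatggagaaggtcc
UQCRH: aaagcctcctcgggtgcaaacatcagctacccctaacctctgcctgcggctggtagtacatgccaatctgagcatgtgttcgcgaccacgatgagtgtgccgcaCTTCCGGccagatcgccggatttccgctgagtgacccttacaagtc
ATP5MC2: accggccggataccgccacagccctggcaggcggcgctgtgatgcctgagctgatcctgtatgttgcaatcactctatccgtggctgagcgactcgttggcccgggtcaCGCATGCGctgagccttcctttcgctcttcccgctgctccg
COX5B: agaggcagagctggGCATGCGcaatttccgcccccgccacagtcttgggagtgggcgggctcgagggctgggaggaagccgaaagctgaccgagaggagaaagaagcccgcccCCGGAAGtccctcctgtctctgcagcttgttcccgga
The ATP5MC1 window held none of the 3 motifs, and CACGTG began at base 5 after the start, in the stretch gaaggtccaggaCACGTGggtgggggaagc. UQCRH held the reverse complement of CCGGAAG, ATP5MC2 held GCATGCG, and COX5B held GCATGCG and CCGGAAG. The windows of NDUFV1 and COX5A, also lower in both knockdowns, are not shown and held none of the 3 motifs. The ATP5MC2 and NDUFV1 windows lie inside the spans given below for these genes, and the ATP5MC1 and COX5A windows overlap theirs. For these genes the RefSeq start therefore differs from the start of the counted gene.

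Promoters (250 bases before the start and 50 after it) were matched for 66 of the 80 tested nuclear members. GCATGCG occurred on either strand in 13 of the 66 (19.7%), against 4.13% of all 27305 promoters in the table. The full NRF1 palindrome, which contains this core, occurred in 4 (6.06%) against 1.36%. CCGGAAG occurred in 20 of 66 (30.3%) against 10.7%, and CACGTG in 7 of 66 (10.6%) against 7.44%. The looser E-box CANNTG, which includes every CACGTG, occurred in 40 of 66 (60.6%) against 68.9%. Among the 13 members with a promoter that fell after siMYCN, GCATGCG was present in 3, CCGGAAG in 2 and CACGTG in 2. In the 53 not called lower after siMYCN, they were present in 10, 18 and 5. Among the 12 that fell after siHAND2, the counts were 4, 5 and 3. A match of letters describes the sequence and does not show binding.

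In siMYCN against siCTR, 15 of the 80 nuclear members were called lower and 1 higher at an adjusted p under 0.05 (limma with Benjamini-Hochberg adjustment over all genes tested, used for every adjusted p here). The called share was 20% of nuclear members, against 35.9% of all genes tested. In all genes 11.4% were called lower and 24.5% higher, so the members' share called lower, 18.8%, was above and their share called higher, 1.25%, below these backgrounds. The median log2 difference of log2(CPM + 1) was -0.05 over the nuclear members and 0.06 over all genes. The 3 siMYCN libraries lay wholly below the 3 siCTR libraries for 28 nuclear members and wholly above for 3, where 16.1% and 33.4% of all genes did so (49.5% in either direction). The members called lower were 4 of 36 in complex I, 0 of 4 in complex II, 1 of 10 in complex III, 4 of 12 in complex IV and 6 of 18 in complex V. The count lower was 6 without siCTR replicate 2, 9 without siMYCN replicate 1 and 8 without siMYCN replicate 3. With median-ratio rescaling of the libraries it was 32, which included all 15. That rescaling also moved the share of calls that were higher, over all genes, from 68.3% (3556 of 5209) to 51.1% (2441 of 4774). The 11.4% of all genes called lower belongs to the main fit, and the counts of the other fits have no such share beside them.

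In siHAND2 against siCTR, 13 of the 80 nuclear members were called lower and 0 higher, a called share of 16.25% against 29.9% of all genes tested. Of all genes 11.8% were called lower and 18.1% higher. By limma, 1 nuclear member, NDUFB11, was higher at an unadjusted p under 0.05, and 17 were lower. The median log2 difference was -0.03 over the nuclear members and 0.04 over all genes. Libraries lay wholly below siCTR for 20 members and wholly above for 3, where 16.6% and 25.8% of all genes did so (42.4% in either direction). The members called lower were 3 in complex I, 0 in complex II, 3 in complex III, 3 in complex IV and 4 in complex V. The count lower was 4 without siCTR replicate 2 and 8 without siHAND2 replicate 2. With median-ratio rescaling it was 19, which included all 13. That rescaling also moved the share of calls that were higher over all genes from 60.6% (2630 of 4339) to 47.0% (1999 of 4250). The 11.8% of all genes called lower is likewise that of the main fit alone.

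Both comparisons share the siCTR libraries. ATP5F1B, ATP5MC1, ATP5MC2, COX5A, COX5B, NDUFV1 and UQCRH were called lower in each of them. The share of all genes called lower in both was not counted, so this overlap has no background beside it. The direct comparison of siHAND2 with siMYCN does not use the siCTR values. In it 7 nuclear members were higher in siHAND2 and 1 lower, 10.0% of the 80 against 26.9% of all genes, of which 11.4% were higher and 15.5% lower. Higher in siHAND2 were UQCRH, NDUFA6, ATP5MC1, NDUFA10, ATP5MC2, COX7C and ATP5PB, and lower was COX6A1. The count higher was 4 without siMYCN replicate 1 and 4 without siMYCN replicate 3, while the shares of all genes are those of the main fit.

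**Figure D2:**
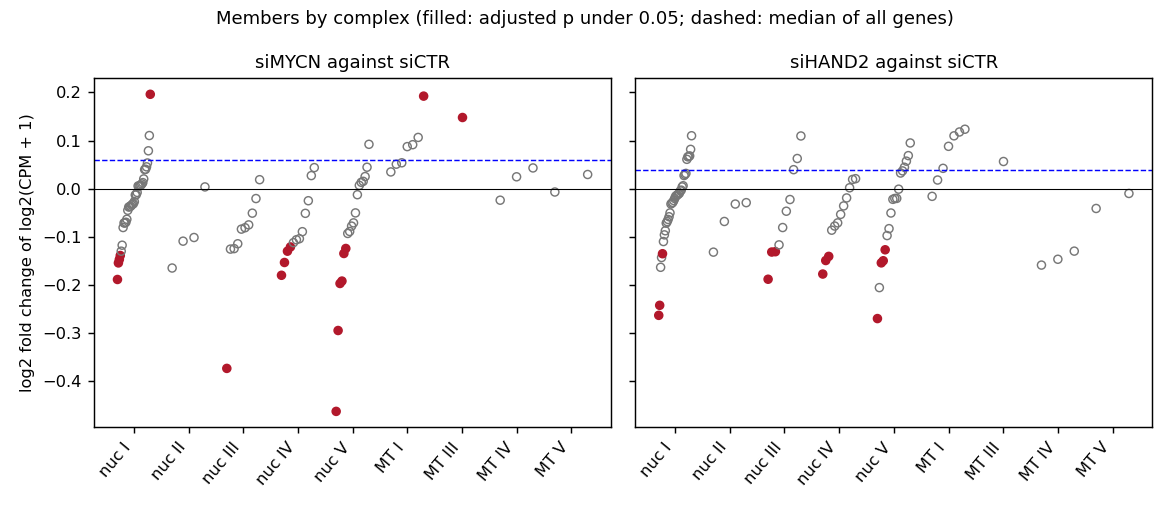
Difference of log2(CPM + 1) from siCTR (y axis) for each tested member, grouped by complex and by genome (nuc, nuclear; MT, mitochondrial). Filled points have an adjusted p under 0.05, and the dashed line is the median of all genes tested. Called nuclear members lie below 0 with the exception of NDUFB2 after siMYCN, and the 3 MT-CO genes (MT IV) lie between -0.16 and -0.13 after siHAND2.

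Complex I takes electrons from NADH, and its nuclear members include the catalytic core and many accessory subunits. NDUFV1 (chromosome 11, 67605653 to 67612554), the core subunit that binds NADH and flavin, had 125, 126 and 125 CPM after siCTR, 117, 110 and 104 CPM after siMYCN and 110, 109 and 99.0 CPM after siHAND2. The 6 knockdown libraries lay below all siCTR libraries. The log2 difference was -0.19 after siMYCN (SE 0.05, adjusted p = 0.0088) and -0.24 after siHAND2 (SE 0.05, adjusted p = 0.00194). The siMYCN call was lost without siMYCN replicate 3 (adjusted p = 0.0545).

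The accessory subunit NDUFA7 (chromosome 19, 8308768 to 8321375) had 20.8, 23.0 and 22.9 CPM after siCTR, 19.5, 21.7 and 20.1 CPM after siMYCN and 19.2, 19.1 and 16.8 CPM after siHAND2. It fell by 0.26 on the log2 scale after siHAND2 (SE 0.07, adjusted p = 0.00922), and its siMYCN libraries overlapped the siCTR libraries. The annotated span of NDUFA7 overlaps RPS28, on the other strand, over 218 bases, and the use of strand in counting is not given in the sources used here. NDUFB2 (chromosome 7, 140690777 to 140722790) was the 1 nuclear member called higher, with 41.5, 43.4 and 44 CPM after siCTR, 47.0, 51.7 and 49.4 CPM after siMYCN and 46.0, 45.3 and 43.2 CPM after siHAND2. Its siMYCN libraries lay above all the others, by 0.20 on the log2 scale over siCTR (SE 0.05, adjusted p = 0.00705, and 0.0544 after quantile normalization). NDUFB2 overlaps BRAF on the other strand and ADCK2 on its own, at 49.2 and 29.0 CPM over the 9 libraries.

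NDUFA6, an accessory subunit of the LYR-motif family, differed in its response to the 2 siRNAs. It had 59.2, 62.1 and 63.0 CPM after siCTR, 54.2, 55.2 and 57.8 CPM after siMYCN and 62.0, 65.2 and 66.3 CPM after siHAND2 (chromosome 22, 42085526 to 42090884). The siHAND2 libraries exceeded the siMYCN libraries by 0.21 on the log2 scale (SE 0.05, adjusted p = 0.00392), a call kept under each alternative. The fall after siMYCN, by 0.14 on the log2 scale (adjusted p = 0.0327), did not pass when siCTR replicate 2 or 3 or siMYCN replicate 1 or 2 was left out (adjusted p from 0.0813 to 0.116). NDUFA10 followed the same order, with group means of 62.7 ± 2.37 CPM after siCTR, 56.5 ± 1.10 CPM after siMYCN and 62.8 ± 2.42 CPM after siHAND2 (SD, n = 3 each). Its siMYCN libraries lay below all the others, with an adjusted p of 0.024 against siCTR and 0.027 against siHAND2. Leaving out siCTR replicate 2 or siMYCN replicate 2 gave an adjusted p of 0.125 or 0.0796 against siCTR, and leaving out any 1 of the siMYCN libraries or siHAND2 replicate 3 gave 0.0503 to 0.0869 against siHAND2.

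NDUFB5, with means of 39.8 ± 0.531, 35.7 ± 2.21 and 37.2 ± 1.97 CPM after siCTR, siMYCN and siHAND2, fell after siMYCN (adjusted p = 0.044), a call lost without any 1 of siCTR replicates 1 to 3, siMYCN replicates 1 and 3 and siHAND2 replicate 2 (adjusted p from 0.0555 to 0.16). NDUFB8, another accessory subunit, had 93.8 ± 2.16, 89.2 ± 0.540 and 85.3 ± 2.16 CPM and fell after siHAND2 (adjusted p = 0.0212, and 0.0793 or 0.0797 without siCTR replicate 2 or 3). Of the 36 nuclear complex I members, 31 passed in neither direction after siMYCN and 33 after siHAND2.

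Complex II, or succinate dehydrogenase, also belongs to the TCA cycle. SDHA, its flavoprotein (chromosome 5, 218241 to 257082), had 114, 112 and 106 CPM after siCTR, 106, 100 and 101 CPM after siMYCN and 107, 99.3 and 95.6 CPM after siHAND2. SDHB, its iron-sulfur subunit, had 18.7, 19.0 and 18.7 CPM, then 17.6, 18.7 and 15.9 CPM, then 17.8, 17.7 and 18.2 CPM. Of the membrane anchors, SDHC had 27.9, 28.4 and 29.6 CPM, then 28.3, 28.6 and 29.3 CPM, then 28.1, 28.4 and 27.5 CPM. SDHD had 24.9, 26.4 and 26.6 CPM, then 21.2, 25.3 and 22.9 CPM, then 25.2, 24.7 and 26.5 CPM. None of the 4 genes passed limma's adjusted threshold in any of the 3 comparisons, with SDHD at an unadjusted p under 0.05 after siMYCN (adjusted p = 0.0611) and SDHA after siHAND2 (adjusted p = 0.0535). Other settings called both lower. SDHD passed after siMYCN without siMYCN replicate 2 (adjusted p = 0.0177) or siHAND2 replicate 3 (adjusted p = 0.0444), and SDHA passed after siHAND2 without siCTR replicate 3 (adjusted p = 0.0406) or siHAND2 replicate 1 (adjusted p = 0.0152). With median-ratio rescaling SDHD passed after siMYCN (adjusted p = 0.0157) and SDHA after siMYCN and siHAND2 (adjusted p = 0.0252 and 0.0182). Only SDHB had libraries that did not overlap siCTR, and they lay below it in both knockdowns. For siMYCN replicate 2 the margin was smaller than the rounding here, with 18.7 CPM as in siCTR replicates 1 and 3.

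Complex III passes electrons from ubiquinol to cytochrome c. UQCRH (chromosome 1, 46303698 to 46316776) had 81.1, 80.3 and 82.9 CPM after siCTR, 61.9, 62.8 and 63.2 CPM after siMYCN and 72.0, 72.3 and 78.6 CPM after siHAND2. The 3 groups formed 3 separate ranges, with siMYCN lowest and siHAND2 between. The siMYCN mean was 76.9% of the siCTR mean (log2 difference -0.37, SE 0.05, adjusted p = 1.17e-05), and siHAND2 exceeded siMYCN by 0.24 on the log2 scale (adjusted p = 0.000783). Both of these calls held in every alternative.

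The smaller fall of UQCRH after siHAND2, by 0.13 on the log2 scale (adjusted p = 0.0395), was lost without any 1 of the siCTR libraries, siHAND2 replicates 1 and 2 or siMYCN replicate 3 (adjusted p from 0.0501 to 0.132). UQCRHL, a near-identical retrocopy of UQCRH, lay at 2.80 to 4.42 CPM over the 9 libraries and was called in no comparison, and reads of the pair could be split by the counting, whose rule is not given in the sources used here. UQCR11, a small membrane subunit, had 39.7, 42.0 and 41.1 CPM after siCTR, 39.5, 36.2 and 40.0 CPM after siMYCN and 34.1, 37.4 and 36.0 CPM after siHAND2. Its siHAND2 libraries lay below siCTR (log2 difference -0.19, SE 0.06, adjusted p = 0.017), a call lost without siCTR replicate 2 (adjusted p = 0.0764) or siHAND2 replicate 1 (adjusted p = 0.0674). Its span includes another gene on the same strand, AC005943.1, at 19.1 CPM.

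Complex IV, cytochrome c oxidase, has a catalytic core made in the mitochondrion and nuclear subunits around it. COX5A had 81.3, 83.5 and 78.2 CPM after siCTR, 72.6, 73.1 and 72.5 CPM after siMYCN and 71.4, 67.3 and 76.1 CPM after siHAND2 (chromosome 15, 74919791 to 74938083). COX5B had 73.8, 76.3 and 70.4 CPM, then 67.1, 64.5 and 62.7 CPM, then 68.0, 67.2 and 63.4 CPM (chromosome 2, 97646062 to 97648383). For both genes all 6 knockdown libraries lay below siCTR. COX5A fell by 0.15 after siMYCN and by 0.18 after siHAND2 on the log2 scale (SE 0.05, adjusted p = 0.0225 and 0.012), and COX5B fell by 0.18 and by 0.15 (SE 0.05, adjusted p = 0.00851 and 0.0287).

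These differences were near the limit of 3 libraries a group. Without siCTR replicate 2, adjusted p was 0.102 and 0.066 for COX5A and 0.0533 and 0.138 for COX5B. COX5A also lost its siMYCN call without siCTR replicate 1 or siMYCN replicate 1 or 3, and its siHAND2 call without siHAND2 replicate 2, while COX5B lost its siHAND2 call without siCTR replicate 1 or siHAND2 replicate 2 or 3 (adjusted p from 0.0509 to 0.0831 over these). COX6A1, the ubiquitous form of subunit 6A, had 174, 185 and 175 CPM after siCTR, 176, 181 and 168 CPM after siMYCN and 162, 161 and 162 CPM after siHAND2. Its siHAND2 libraries lay below all the others, by 0.14 on the log2 scale against siCTR (adjusted p = 0.0173, and 0.104 without siCTR replicate 2 or 0.051 without siHAND2 replicate 2). Against siMYCN the adjusted p was 0.0492 and was above 0.05 without any 1 of 8 of the 9 libraries (adjusted p from 0.054 to 0.161).

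Several complex IV subunits have tissue or cell type forms. Per kb of canonical transcript, the siCTR level was 332 CPM for COX6A1, 276 CPM for COX7A2, 228 CPM for COX4I1 and 194 CPM for COX6B1, the forms of most tissues. The testis form COX6B2 lay at 0.226 CPM per kb and was not tested. COX7A2L, which takes part in joining complexes III and IV, lay at 49.2 CPM per kb, and NDUFA4, first assigned to complex I and now to complex IV, at 73.5 CPM per kb. These levels depend on the length of the 1 canonical transcript used. It was 2282 bases for COX7A2L and 2035 for NDUFA4, against 462 for COX7A2 and 763 for COX4I1. Which transcripts these cells express was not tested. COX4I2, COX6A2, COX7A1 and COX7B2 fit the symbol rule but were not among the listed genes, so they have no values here.

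Complex V held 6 of the 15 nuclear members called lower after siMYCN and 4 of the 13 after siHAND2. It made up 18 of the 80 tested nuclear members, so 33.3% and 22.2% of complex V were called lower. All genes tested were called lower at 11.4% and 11.8%. The share after siMYCN was the same in complex IV (4 of 12). After siHAND2 the share was higher in complex III (3 of 10) and complex IV (3 of 12) than in complex V. ATP5MC1 (chromosome 17, 48892765 to 48895871) had 61.2, 68.5 and 65.4 CPM after siCTR, 47.2, 47.2 and 46.2 CPM after siMYCN and 56.8, 53.5 and 51.1 CPM after siHAND2. The groups did not overlap, and siMYCN was lowest. The mean fell to 72.1% of siCTR after siMYCN (log2 difference -0.46, SE 0.05, adjusted p = 6.22e-06) and to 82.7% after siHAND2 (log2 difference -0.27, SE 0.05, adjusted p = 0.00111), calls that held in every alternative. The siHAND2 level exceeded the siMYCN level by 0.19 on the log2 scale (adjusted p = 0.0126, and 0.0541 without siHAND2 replicate 1).

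ATP5MC2 (chromosome 12, 53632726 to 53677408) had 142, 157 and 153 CPM after siCTR, 122, 126 and 119 CPM after siMYCN and 136, 135 and 135 CPM after siHAND2. The order of the groups was that of ATP5MC1, with log2 differences of -0.29 after siMYCN (SE 0.05, adjusted p = 9.14e-05) and -0.15 after siHAND2 (SE 0.05, adjusted p = 0.0155). The siHAND2 call was lost without siCTR replicate 2 (adjusted p = 0.0952) or 3 (adjusted p = 0.0593). ATP5MC3, the last of the 3 genes for the c subunit, had means of 126 ± 2.52, 118 ± 1.71 and 119 ± 3.94 CPM after siCTR, siMYCN and siHAND2 (SD, n = 3 each), with adjusted p of 0.105 and 0.141. It was named after its values were seen, to complete the family.

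The catalytic head and the stalks of ATP synthase showed smaller differences. ATP5F1A, the alpha subunit, had 607, 621 and 608 CPM after siCTR, 528, 543 and 531 CPM after siMYCN and 580, 552 and 585 CPM after siHAND2, and fell by 0.20 on the log2 scale after siMYCN (adjusted p = 0.000855). ATP5F1B, the catalytic beta subunit, had 699, 731 and 706 CPM, then 666, 644 and 649 CPM, then 651, 629 and 645 CPM. Its fall after siHAND2, by 0.15 on the log2 scale (adjusted p = 0.00747), held in every alternative, and its fall after siMYCN, by 0.12 (adjusted p = 0.0188), did not pass when siCTR replicate 2 or siMYCN replicate 2 or 3 was left out (adjusted p from 0.0566 to 0.0928). ATP5PB, the b subunit of the peripheral stalk, had 152, 153 and 149 CPM, then 133, 134 and 129 CPM, then 144, 144 and 148 CPM. It fell by 0.19 after siMYCN (adjusted p = 0.00112), and siHAND2 exceeded siMYCN by 0.14 (adjusted p = 0.0121, and 0.0581 without siMYCN replicate 3). ATP5IF1, which inhibits the enzyme when it runs in reverse, had 22.2 ± 0.861, 22.5 ± 0.686 and 21.9 ± 1.04 CPM, and its libraries overlapped in every comparison.

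**Figure D3:**
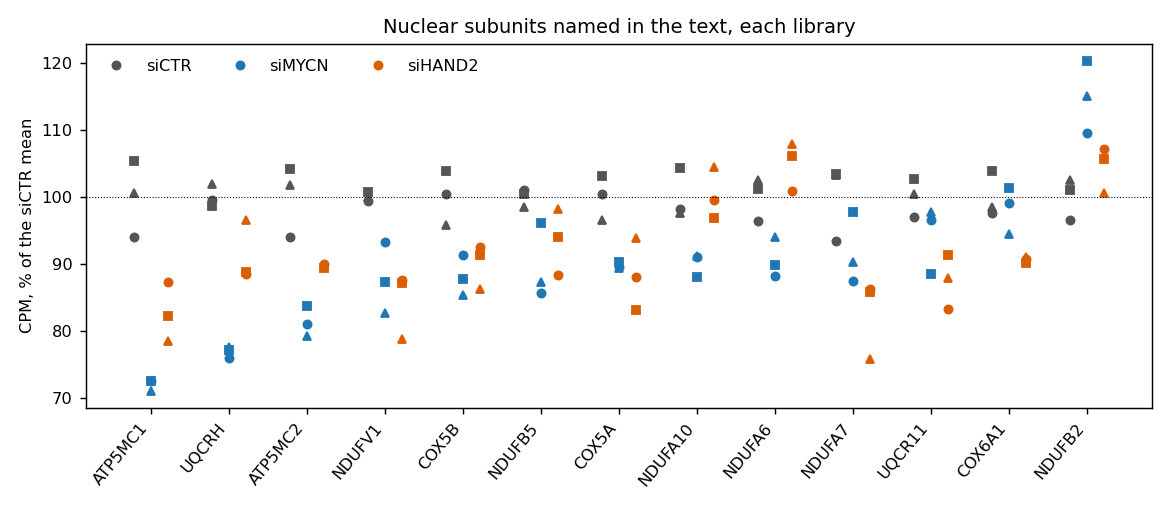
CPM of 13 nuclear members in each library as a percent of the gene's siCTR mean (y axis), sorted by the difference after siMYCN. Circles, squares and triangles are replicates 1, 2 and 3, and the dotted line marks the siCTR mean. ATP5MC1 and UQCRH reach mean levels of 72.1% and 76.9% in siMYCN, and NDUFA6 and NDUFA10 lie below their siCTR mean in every siMYCN library.

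The other nuclear members called lower after siMYCN were ATP5MPL (a small membrane subunit of ATP synthase), COX7C and NDUFA4. Those after siHAND2 were ATP5F1C (the gamma subunit of the rotor) and UQCRQ. Their log2 differences were from -0.13 to -0.12 with adjusted p from 0.0233 to 0.0489, and each did not pass when siCTR replicate 2 or 3 was left out (adjusted p from 0.0676 to 0.169), among other libraries. The calls that held under every alternative were 5 of 16 after siMYCN (ATP5F1A, ATP5MC1, ATP5MC2, ATP5PB and UQCRH) and 4 of 13 after siHAND2 (ATP5F1B, ATP5MC1, NDUFA7 and NDUFV1).

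The mitochondrial chromosome is transcribed from both strands as long precursors that are cut into single messenger RNAs, and the stability of each RNA is known to contribute to its level. Per kb of gene, MT-CO3 had the highest siCTR level, 3506 CPM, followed by MT-CO1 at 1849 CPM and MT-CO2 at 1155 CPM. MT-ND3 followed at 238 CPM, MT-CYB at 109 CPM, MT-ATP6 at 108 CPM and MT-ND4 at 70.9 CPM per kb. MT-ND1 lay at 63.6 CPM, MT-ND5 at 54.3 CPM, MT-ND2 at 50.8 CPM, MT-ND4L at 49.5 CPM, MT-ATP8 at 36.9 CPM and MT-ND6 at 34.6 CPM per kb. The 3 MT-CO genes, the catalytic core of complex IV, made up 91.0%, 90.5% and 89.8% of the mitochondrial sum in siCTR, siMYCN and siHAND2. Among nuclear members the highest levels per kb of canonical transcript were 405 CPM for ATP5F1B and 332 CPM for COX6A1. This order rests on the canonical lengths, such as 1759 bases for ATP5F1B and 5761 for ATP5F1A, which lay at 106 CPM per kb.

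Neighbours in this order were often indistinguishable in siCTR, where the libraries of MT-CYB and MT-ATP6 overlapped on this scale. MT-ATP8 and MT-ATP6 share 46 bases, MT-ND4L and MT-ND4 share 7, and reads of each pair can cover both. The table lists 40 nuclear copies of mitochondrial genes, and their sum was 0.210% to 0.291% of the members' sum per library. That sum is mostly MT-CO RNA, and single members can be more affected. The highest copy, MTATP6P1, had a mean of 8.97 CPM over the libraries, beside 73.8 CPM for MT-ATP6. The 3 MT-CO genes led in each group.

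**Figure D4:**
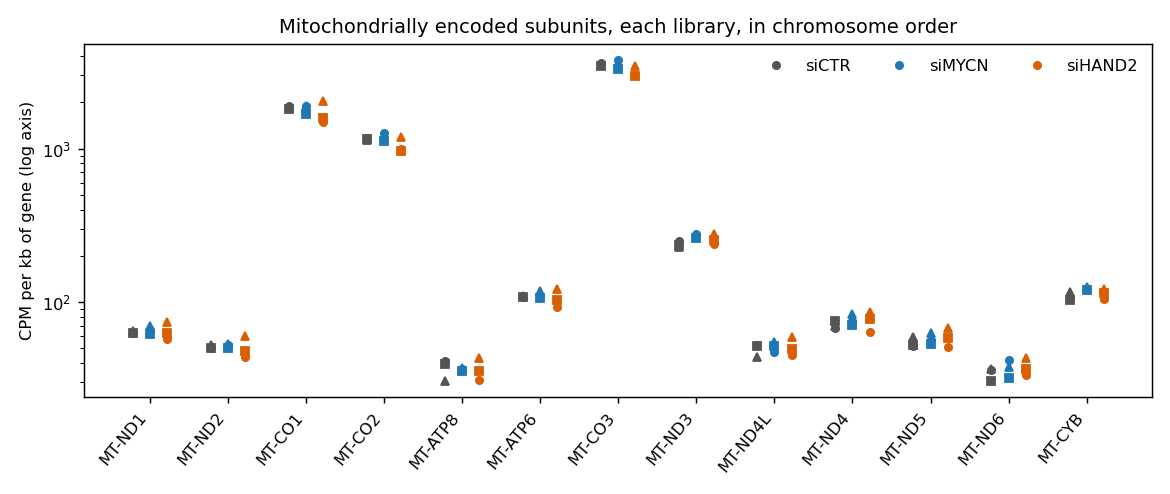
CPM per kb of gene (log axis) of the 13 mitochondrial members in each library, in chromosome order. Circles, squares and triangles are replicates 1, 2 and 3 of each group. The 3 MT-CO genes lie above the others, and replicate 3 of siHAND2 is the highest of its group for all 13 genes.

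In siMYCN against siCTR, 2 of the 13 mitochondrial members, MT-ND3 and MT-CYB, were called higher and 0 lower by limma, with 0 lower at an unadjusted p under 0.05. This is 15.4% called higher against 24.5% of all genes. MT-ND3 (mitochondrial chromosome, 10059 to 10404), a core subunit of complex I, had 86.9, 81.3 and 78.6 CPM after siCTR, 96.6, 90.8 and 94.9 CPM after siMYCN and 82.9, 87.6 and 96.4 CPM after siHAND2. Its siMYCN libraries lay above siCTR, by 0.19 on the log2 scale (SE 0.06, adjusted p = 0.0131), and the call was lost without siCTR replicate 3 (adjusted p = 0.0644) and with median-ratio rescaling (adjusted p = 0.0663). MT-CYB (14747 to 15887), the cytochrome b of complex III, had 123, 118 and 133 CPM, then 136, 136 and 142 CPM, then 120, 130 and 139 CPM. It rose by 0.15 on the log2 scale after siMYCN (SE 0.05, adjusted p = 0.0435), a call lost without any 1 of siCTR replicates 1 and 2, the 3 siMYCN libraries and siHAND2 replicate 2 (adjusted p from 0.0559 to 0.191). The median difference over the 13 genes was 0.05, close to the 0.06 of all genes.

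In siHAND2 against siCTR, 0 of the 13 were called in either direction by limma, against 18.1% of all genes called higher and 11.8% lower. At an unadjusted p under 0.05, 0 were higher and 2 lower, MT-CO2 and MT-CO3. MT-CO1 (5904 to 7445) had 2899, 2783 and 2872 CPM after siCTR, 2935, 2583 and 2908 CPM after siMYCN and 2308, 2440 and 3142 CPM after siHAND2. MT-CO2 (7586 to 8269) had 797, 789 and 783 CPM, then 858, 764 and 823 CPM, then 679, 659 and 811 CPM. MT-CO3 (9207 to 9990) had 2818, 2703 and 2726 CPM, then 2958, 2600 and 2843 CPM, then 2370, 2345 and 2686 CPM. Replicates 1 and 2 of siHAND2 were the lowest of the 9 libraries for all 3 genes, and replicate 3 was the highest of the 9 for MT-CO1.

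The differences from siCTR were -0.13 for MT-CO1 (adjusted p = 0.276), -0.15 for MT-CO2 (adjusted p = 0.0963) and -0.16 for MT-CO3 (adjusted p = 0.0531). Against siMYCN, MT-CO2 and MT-CO3 were called lower in siHAND2, by 0.19 and by 0.18 on the log2 scale (SE 0.06, adjusted p = 0.0367 and 0.0299), which is 15.4% of the members against 15.5% of all genes called lower. The siHAND2 and siMYCN libraries overlapped for both genes, and neither call remained without any 1 of siMYCN replicates 1 and 3 and siHAND2 replicates 1 and 2 (adjusted p from 0.083 to 0.173).

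Replicates 1 and 3 of siHAND2 stood apart in the mitochondrial values. Replicate 3 was the highest of the 3 siHAND2 libraries for 13 of 13 mitochondrial members and for 39 of 80 nuclear members, and replicate 1 was the lowest for 11 of the 13. The median coefficient of variation over the mitochondrial members was 14.1% in siHAND2, against 5.16% in siCTR and 6.13% in siMYCN. For nuclear members it was 4.67%, 3.14% and 3.32%. The median log2 difference from siCTR over the 13 genes was 0.02 with all libraries, -0.08 without replicate 3 and 0.10 without replicate 1. Without replicate 3, 5 members were called lower than siCTR (MT-ATP6, MT-CO1, MT-CO2, MT-CO3 and MT-ND2), with the log2 difference of MT-CO1 at -0.26 (adjusted p = 0.00289), and 6 were lower than siMYCN. Without siHAND2 replicate 1, 3 members were instead called higher than siCTR (MT-ND3, MT-ND4 and MT-ND5). The shares of all genes called in these fits are not given here. The sign of the median over the 13 genes after siHAND2 therefore changed with the library left out. The log2 differences of MT-CO1, MT-CO2 and MT-CO3 from siCTR stayed negative in every alternative.

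The remaining mitochondrial members spread in the same way. MT-ND1 had 59.9, 60.3 and 62.0 CPM after siCTR, 63.2, 59.3 and 67.0 CPM after siMYCN and 54.8, 60.2 and 70.6 CPM after siHAND2. MT-ND2 had 52.0, 52.3 and 54.4 CPM, then 54.6, 52.6 and 55.5 CPM, then 45.4, 50.2 and 62.7 CPM. Both encode membrane core subunits of complex I, MT-ND2 being related to bacterial antiporters, and the siHAND2 libraries lay on both sides of siCTR for each. MT-ND4 had 93.0, 104 and 96.4 CPM, then 104, 97.5 and 115 CPM, then 88.2, 108 and 118 CPM. MT-ND5 had 93.1, 94.9 and 107 CPM, then 103, 96.7 and 115 CPM, then 92.8, 106 and 123 CPM. These encode further antiporter-like subunits, and siHAND2 replicate 3 was again highest.

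MT-ND4L had 15.7, 15.5 and 13 CPM, then 14.1, 15.3 and 16.4 CPM, then 13.5, 14.6 and 17.6 CPM. MT-ND6, the 1 member on the opposite strand of the chromosome, had 19.0, 16.1 and 19.3 CPM, then 21.9, 16.8 and 19.7 CPM, then 17.7, 19.4 and 22.7 CPM. On this strand too, siHAND2 replicate 3 was the highest of its group. MT-ATP6 had 73.8, 73.2 and 74.3 CPM, then 73.1, 72.8 and 80.3 CPM, then 63.2, 70.0 and 83.2 CPM. MT-ATP8 had 8.50, 8.12 and 6.31 CPM, then 7.57, 7.40 and 7.68 CPM, then 6.45, 7.37 and 8.96 CPM. Both encode membrane subunits of ATP synthase, and all groups overlapped for each.

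The mitochondrial ribosomal RNAs, which share precursors with the messenger RNAs, were higher in both knockdowns. MT-RNR1 had 109, 122 and 89.7 CPM after siCTR, 136, 155 and 164 CPM after siMYCN and 165, 203 and 138 CPM after siHAND2. It rose by 0.51 on the log2 scale after siMYCN (SE 0.11, adjusted p = 0.00253) and by 0.65 after siHAND2 (SE 0.11, adjusted p = 0.000429). MT-RNR2 had 1008, 1046 and 920 CPM, then 1137, 1167 and 1285 CPM, then 1085, 1146 and 1306 CPM, and rose by 0.27 (adjusted p = 0.00449) and by 0.25 (adjusted p = 0.00965, and 0.0523 without siCTR replicate 3). All 6 knockdown libraries lay above siCTR for both RNAs. The siHAND2 replicate with the most messenger RNA, replicate 3, had the most MT-RNR2 and the least MT-RNR1 of its group. Whether the libraries were selected for poly(A) RNA or depleted of ribosomal RNA is not given in the sources used here.

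Genes that build or serve the chain were taken from lists by function. After siMYCN, assembly factors were called lower in 5 of 18 for complex I, 1 of 4 for complex II, 1 of 6 for complex III, 8 of 23 for complex IV and 0 of 4 for complex V, and none was called higher. After siHAND2 the counts lower were 5, 0, 1, 3 and 0, and SDHAF2 was called higher. All genes tested were called lower at 11.4% and 11.8% and higher at 24.5% and 18.1%. ECSIT, which takes part in complex I assembly, had 59.6 ± 3.74 CPM after siCTR, 44.8 ± 0.809 CPM after siMYCN and 44.8 ± 1.94 CPM after siHAND2 (SD, n = 3 each), with adjusted p of 2.81e-05 and 2.78e-05. NDUFAF2, an assembly factor bound to a late complex I intermediate, fell by 0.41 after siMYCN (adjusted p = 0.000156) and by 0.22 after siHAND2 (adjusted p = 0.02, and 0.123 without siCTR replicate 1). NUBPL, which delivers iron-sulfur clusters to complex I, fell by 0.39 after siMYCN (adjusted p = 0.000489).

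For complex IV, COX15, an enzyme of heme A synthesis, fell by 0.26 after siMYCN (adjusted p = 0.000284), and COA4 fell by 0.31 and by 0.23 after the 2 siRNAs (adjusted p = 0.000346 and 0.0046). COA7 fell by 0.20 after siMYCN (adjusted p = 0.00242). SDHAF3 fell by 0.31 after siMYCN (adjusted p = 0.00288), and SDHAF2, which helps attach flavin to SDHA, rose by 0.22 after siHAND2 (adjusted p = 0.015, and 0.0715 without siCTR replicate 2). For complex III, LYRM7, a chaperone of the Rieske protein, fell by 0.30 after siMYCN (adjusted p = 0.00375), and BCS1L, which inserts that protein, fell by 0.20 after siHAND2 (adjusted p = 0.0157, and 0.0512 or 0.0547 without siCTR replicate 2 or 3).

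Among 17 electron carrier genes (cytochrome c, ubiquinone synthesis and the electron-transfer flavoprotein), 2 were higher and 3 lower after siMYCN, and 1 higher and 2 lower after siHAND2. All genes tested were called higher at 24.5% and lower at 11.4% after siMYCN, and at 18.1% and 11.8% after siHAND2. COQ8A, needed for ubiquinone synthesis, fell from 52.2 ± 0.822 CPM after siCTR to 31.0 ± 1.61 CPM after siMYCN and 34.2 ± 1.71 CPM after siHAND2 (SD, n = 3 each, adjusted p = 8.6e-08 and 4.04e-07). PDSS1, which makes the ubiquinone side chain, fell by 0.28 and by 0.33 (adjusted p = 0.00498 and 0.00169). ETFB, a subunit of the electron-transfer flavoprotein, rose by 0.24 and by 0.34 (adjusted p = 0.00852 and 0.000756).

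Of 18 genes of mitochondrial DNA transcription and replication, 8 were lower after siMYCN and 4 after siHAND2, with 0 higher in either. The shares over all genes were 11.4% and 11.8% lower and 24.5% and 18.1% higher. POLRMT, the mitochondrial RNA polymerase, had 44.5 ± 2.24, 37.5 ± 2.89 and 34.4 ± 2.44 CPM after siCTR, siMYCN and siHAND2 (SD, n = 3 each, adjusted p = 0.00852 and 0.00051). TWNK, the replicative helicase, fell by 0.42 and by 0.43 (adjusted p = 9.42e-05 and 8.21e-05), and the topoisomerase TOP1MT by 0.55 and by 0.50 (adjusted p = 7.49e-05 and 0.000217). Of 17 tested genes of mitochondrial RNA processing and stability, 9 were lower and 1 higher after siMYCN, and 7 lower and 0 higher after siHAND2. TWNK is held by both lists, and without it 7 of 17 and 8 of 16 genes were lower after siMYCN and 3 of 17 and 6 of 16 after siHAND2. LRPPRC, which stabilises mitochondrial messenger RNAs, fell from 423 ± 9.77 CPM to 329 ± 5.03 CPM and 344 ± 13.7 CPM (adjusted p = 4.81e-06 and 3.43e-05). REXO2, an oligoribonuclease, fell by 0.45 and by 0.47 (adjusted p = 9.49e-06 and 5.8e-06), whereas PNPT1, an RNA-degrading enzyme, fell by 0.37 after siMYCN (adjusted p = 5.49e-05) and lay higher in siHAND2 than in siMYCN by 0.31 (adjusted p = 0.000329).

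Of 16 tested regulators of mitochondrial biogenesis, 5 were higher and 3 lower after siMYCN, and 2 higher and 4 lower after siHAND2. The shares of all genes were 24.5% and 18.1% called higher and 11.4% and 11.8% called lower. The coactivator PPARGC1B fell from 3.54 ± 0.0856 CPM to 1.15 ± 0.130 CPM after siMYCN and 2.28 ± 0.466 CPM after siHAND2 (SD, n = 3 each, adjusted p = 4.28e-06 and 0.00645), and siHAND2 exceeded siMYCN (adjusted p = 0.00118). At this level the log2(CPM + 1) scale understates the fold. The nuclear receptor ESRRG moved in opposite directions, from 63.5 ± 0.826 CPM to 93.4 ± 5.89 CPM after siMYCN and 51.0 ± 3.31 CPM after siHAND2 (adjusted p = 1.63e-06 and 0.000428, and 4.14e-09 between the knockdowns). GABPB1, a subunit of the factor GABP, rose from 64.0 ± 1.14 CPM to 96.7 ± 4.26 CPM after siHAND2 (adjusted p = 6.75e-08). Its difference after siMYCN, 0.12 on the log2 scale (adjusted p = 0.0445), was lost without any 1 of the siCTR or siMYCN libraries (adjusted p from 0.0617 to 0.144).

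Of 19 genes of the TCA cycle and pyruvate entry, 5 were lower and 0 higher in each knockdown. Over all genes, 11.4% were lower and 24.5% higher after siMYCN, and 11.8% and 18.1% after siHAND2. MDH2, the mitochondrial malate dehydrogenase, fell from 171 ± 8.58 CPM to 135 ± 5.57 CPM after siMYCN and 149 ± 4.34 CPM after siHAND2 (adjusted p = 3.86e-05 and 0.00467). Citrate synthase (CS) fell by 0.26 and by 0.17 (adjusted p = 0.000152 and 0.00522). PC, pyruvate carboxylase, fell by 0.42 after siHAND2 (adjusted p = 6.82e-05). Its fall by 0.17 after siMYCN (adjusted p = 0.04) did not pass when siCTR replicate 1 or 3 or siMYCN replicate 2 or 3 was left out (adjusted p from 0.079 to 0.143).

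**Figure D5:**
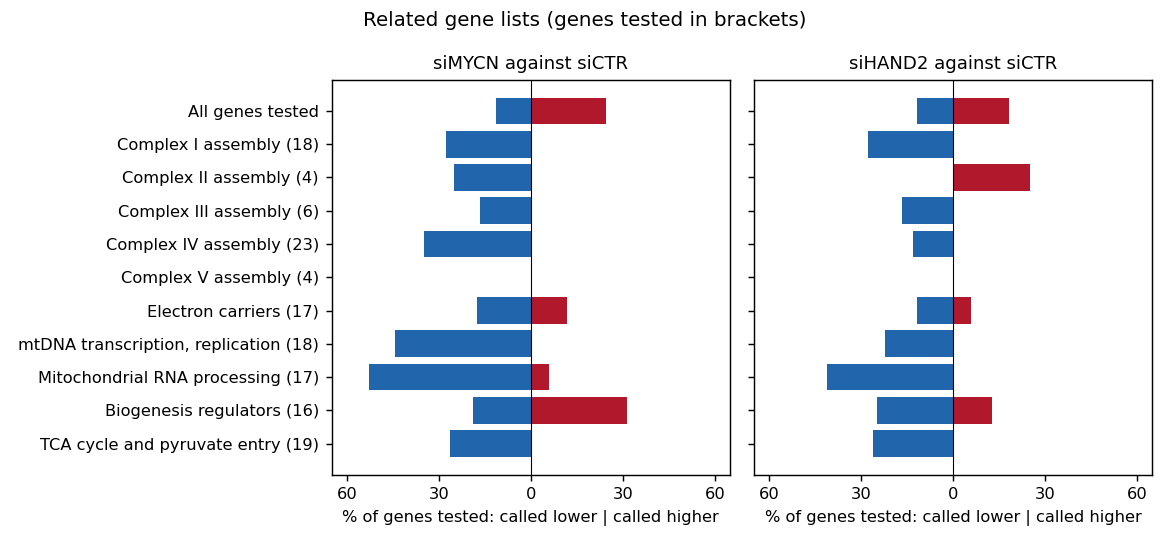
Percent of tested genes called lower (left of 0) and higher (right of 0) at an adjusted p under 0.05 in each list, with the number tested in brackets and all genes tested on top. After siMYCN 8 of 18 genes of mitochondrial DNA transcription and replication and 9 of 17 of RNA processing were called lower, against 11.4% of all genes, with TWNK counted in both lists.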

How the data were processed

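RNA was sequenced in 9 libraries, 3 per siRNA. The authors deposited 1 table whose values are CPM per gene, aligned with STAR 2.5.1 and processed in Partek, per the submitters' processing notes. These notes name hg19 and GRCh37, but 81 of 82 nuclear members without pseudogenes overlapped their GRCh38 interval and 10 of 82 their GRCh37 interval, so coordinates are given as GRCh38. The counting rule, its use of strand and of reads that fit several genes are not given in the sources used here. Of low values, 78.8% to 80.2% fell within 0.02 of a whole step, under the 95% needed to treat them as reads, so no count test was run and the step served for depth only, which covers counting error.

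Values were tested as log2(CPM + 1) with limma 3.58.1 in R 4.3.3 (1 mean per group, intensity trend, two-sided, all 9 libraries in 1 fit, threshold 0.05) over genes with at least 1 CPM in 3 libraries. The script was tested on simulated data. Members and lists were chosen with earlier results of these data known. Named genes were all mitochondrial members, SDHA to SDHD, the largest called changes per complex and contrast without overlap (mean of at least 5 CPM), isoforms of complex IV, and up to 3 genes of smallest p per other list. The other members named were chosen after their values were seen. Lengths came from the table (mitochondrial) or a GRCh37 annotation by symbol. Alternatives were pseudocounts, filters, scalings, no trend, 2 groups alone, the replicate block and each library left out.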

Additional observations from a re-analysis of the deposited data

How the results depend on the processing

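No call of a gene named in the report changed sign under these alternatives, and PPARGC1B was not tested with the 5 CPM filter. In siMYCN against siCTR, nuclear members called lower numbered 32 with median-ratio rescaling, 31 with quantile normalization, 9 without the intensity trend and 6 to 18 with 1 library left out, and nuclear members called higher 0 with quantile normalization, 2 with the 2 groups of the contrast alone and 1 to 2 with 1 library left out. Mitochondrial members called higher numbered 1 without a filter, 0 with median-ratio rescaling, 1 with quantile normalization (MT-CO2), 1 without the trend and 1 to 2 with 1 library left out. In siHAND2 against siCTR, nuclear members called lower numbered 19 with median-ratio rescaling and 15 with quantile normalization. They numbered 7 without the trend and 4 to 16 with 1 library left out, and those called higher 0 to 1. Mitochondrial members called higher numbered 0 to 3 and lower 0 to 5 with 1 library left out, and 1 were lower with a 5 CPM filter, 2 with median-ratio rescaling and 1 with the 2 groups alone. In siHAND2 against siMYCN, nuclear members called higher numbered 13 with median-ratio rescaling, 12 with quantile normalization, 4 without the trend and 4 to 8 with 1 library left out. Nuclear members called lower numbered 0 with a pseudocount of 0.1, without a filter, with either rescaling, with the 2 groups alone and without the trend, and 0 to 1 with 1 library left out. Mitochondrial members called lower numbered 0 without a filter, 1 with the 2 groups alone, 0 without the trend and 0 to 6 with 1 library left out. Median-ratio rescaling gave summed CPM of 7730.5 in siCTR and 7033.6 in siMYCN for the nuclear class and 7178.9 in siCTR for the mitochondrial class. The share of all genes called in each of these settings is not given here, so these counts have no background beside them. The causes were not tested.

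The check on replicate numbers asked that all same-numbered libraries of different groups correlate above 0.1 in their deviations. They correlated from -0.04 to 0.31, so it was not met and the main fit had no block. Differently numbered libraries correlated from -0.30 to 0.14, mostly lower than the same-numbered ones. Whether the numbers mark paired samples was not tested further. With the replicate number as a block, nuclear members called lower numbered 19 after siMYCN and 16 after siHAND2, mitochondrial members called lower after siHAND2 numbered 2 (MT-CO2 and MT-CO3), and siHAND2 against siMYCN gave 10 nuclear members higher and 2 lower. The block also called SDHD lower after siMYCN (adjusted p = 0.0372) and SDHA lower after siHAND2 (adjusted p = 0.015). For this fit too, the shares of all genes called are not given here.

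Counting error at 1 CPM was up to 21.8%, so depth limits the genes near or under that level, such as PPARGC1B after siMYCN.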
